A study of Homo sapiens with 3 samples.

Results

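The long arm of chromosome 1 was examined for sites of the long non-coding RNA SRA and of its partner p68 in NTERA2, an established human line that was derived from an embryonal carcinoma and is pluripotent. SRA sites came from ChIRP-seq, in which biotinylated oligonucleotides recover an RNA with the chromatin around it, and p68 sites from ChIP-seq with an antibody against p68. No treatment or genotype separates the samples, and input chromatin, the remaining sample, was not analysed here. All sites of either list on chromosome 1 with a midpoint at or above 125 Mb (hg19) were taken. This gave 1402 of 7899 SRA sites (17.7%) and 1145 of 14131 p68 sites (8.10%), or 2547 of 22030 sites in all. The boundary itself lay in empty sequence. The nearest sites before it ended at 120206333 for SRA and at 121485602 for p68, and the nearest after it began at 144852297 for SRA and at 143991777 for p68.

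SRA was named as an RNA coactivator of steroid receptors, and it works as a scaffold that brings regulatory proteins to chromatin. p68, the product of DDX5, is a DEAD box helicase that remodels RNA and acts as a coregulator of transcription factors in addition to its work in splicing and microRNA processing. SRA binds p68 directly, so the question put to the lists is where on the arm each of them lies and how often both lie at the same place. The arm starts with a large block of heterochromatin next to the centromere, much of which is not assembled in hg19, and the gene-bearing part follows.

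Each list is the authors' intersection of 3 biological replicates and holds only chromosome, start and end. Read depth, peak height and the spread between replicates are therefore unknown, and intervals given here cover counting error only. p68 sites were called at a stricter p-value than SRA sites, so the number of sites in the lists does not compare how much DNA each occupies. Genes are not named at the sites, since no gene annotation of that build was analysed here.

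Primers for single loci in chromatin precipitates were designed for 3 genes of the long arm. These are KIF21B, a kinesin motor of neurons and immune cells, BTG2, an antiproliferative gene induced by p53, and TMCC2, which encodes a transmembrane protein with coiled coils. In the order of the RefSeq gene table (GRCh38.p14), KIF21B lies between INAVA and CACNA1S, BTG2 between CHIT1 and FMOD, and TMCC2 between DSTYK and NUAK2. There are 37 protein-coding genes between KIF21B and BTG2, and 25 between BTG2 and TMCC2. The primers are shown because they mark where PCR on this arm was designed apart from the genome-wide lists. The paper describes loci tested by PCR as examples of genes associated with SRA or p68, so they were not chosen independently of binding. Each is given 5′ to 3′.
KIF21B forward: ggtaagaaccctggtctccc
KIF21B reverse: ggctagtcttgggctaggag
BTG2 forward: tccctggacctcctgaaaaac
BTG2 reverse: aagaccttaagcctctgctcg
TMCC2 forward: atgggtggaggaaatcctgg
TMCC2 reverse: gtttttggggttggttgcac

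For BTG2 and TMCC2 only 1 primer of each pair was found in the promoter table, so the amplified stretch itself was not located. The promoters are shown to place that primer. The BTG2 forward primer matched 2 promoter windows over all genes. It points towards the gene and ended 22 bases before the annotated start of the gene. The TMCC2 reverse primer lies on the opposite strand and matched 1 of the 6 windows of TMCC2. The matched stretch ended 116 bases before the start to which that window belongs. The 250 bases upstream of these starts are printed from RefSeq (GRCh38.p14), on the strand of the gene, with the match to the primer in capitals.
BTG2 promoter: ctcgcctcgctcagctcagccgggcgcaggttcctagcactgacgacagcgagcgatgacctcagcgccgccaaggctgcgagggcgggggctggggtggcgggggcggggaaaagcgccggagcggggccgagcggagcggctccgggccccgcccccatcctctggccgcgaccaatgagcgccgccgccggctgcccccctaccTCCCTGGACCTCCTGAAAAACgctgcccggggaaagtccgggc
TMCC2 promoter: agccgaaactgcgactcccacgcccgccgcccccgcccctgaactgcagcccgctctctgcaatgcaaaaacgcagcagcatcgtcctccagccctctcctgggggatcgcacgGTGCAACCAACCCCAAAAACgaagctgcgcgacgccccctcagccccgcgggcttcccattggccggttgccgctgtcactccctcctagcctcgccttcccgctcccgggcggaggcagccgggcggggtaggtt

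Both stretches are rich in G and C. The BTG2 stretch is 74.8% GC with 30 CG dinucleotides, and 10.78% of the 35116 RefSeq promoters have a GC content at least as high. The TMCC2 stretch is 69.2% GC with 25 CG dinucleotides, a content that 22.49% of promoters reach. The letters GGGCGG, the core of the GC box, were counted on both strands. They occur 3 times in the BTG2 stretch and 4 times in the TMCC2 stretch, and 42.6% of all promoters hold them at least once. For KIF21B the table held no promoter, so none was searched. The windows could not be placed on the site lists, which use another build.

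SRA and p68 sites were spread very unevenly over the arm. The arm was divided into 125 windows of 1 Mb, of which the 18 nearest to the boundary held no site of either list. The other 107 windows held a median of 8 SRA sites (quartiles 2 and 18.5) and a median of 7 p68 sites (quartiles 2 and 14). The 10 densest windows carried 36.9% of the SRA sites (517 sites) and, for p68, 35.8% (410 sites). Both lists were present in 93 of the 107 windows. In 9 windows there was no SRA site but a total of 19 p68 sites, and in 5 windows there was no p68 site but a total of 16 SRA sites. No window after the first site was empty in both lists.

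**Figure D1:**
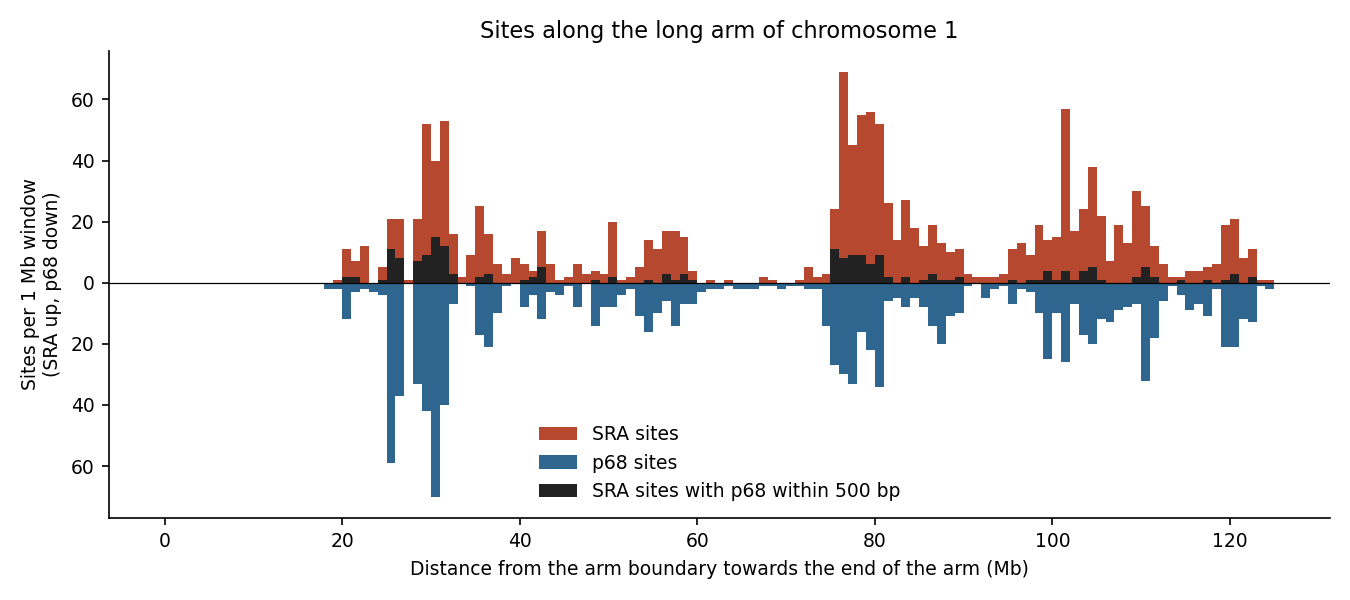
Sites per 1 Mb window (y axis, SRA upwards and p68 downwards) against the distance from the arm boundary in Mb (x axis), with SRA sites that had a p68 site within 500 bp in black. SRA reached 69 sites in a window and p68 reached 70, in windows far apart from each other on the arm.

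Of the 5 windows richest in SRA and the 5 richest in p68, only the one from 156 to 157 Mb was the same. SRA was densest from 201 to 202 Mb, with 69 SRA and 30 p68 sites. Next came the window from 226 to 227 Mb (57 SRA and 26 p68 sites), the window from 204 to 205 Mb (56 and 22), the window from 203 to 204 Mb (55 and 16) and the window from 156 to 157 Mb (53 and 40). The p68 list was densest from 155 to 156 Mb, with 70 p68 and 40 SRA sites. It was followed by the windows from 150 to 151 Mb (59 p68 and 21 SRA sites), 154 to 155 Mb (42 and 52), 156 to 157 Mb (40 and 53) and 151 to 152 Mb (37 and 21). Of the 10 densest windows of each list, 6 were the same.

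Over the 107 windows the numbers of both lists moved together, with a Pearson correlation of 0.70 and a Spearman correlation of 0.77. This describes the windows only, since neighbouring windows are not independent and both lists were made from the same cell line against the same build. SRA sites were more numerous than p68 sites in 53 windows, p68 sites were more numerous in 44, and the numbers were equal in 10.

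**Figure D2:**
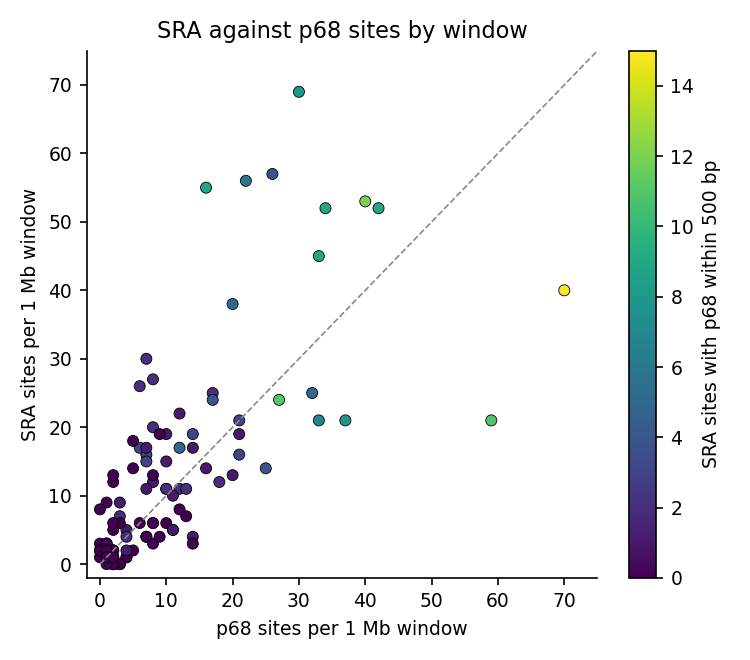
SRA sites (y axis) against p68 sites (x axis) in each of the 107 windows of 1 Mb from the first site on, coloured by the number of SRA sites with p68 within 500 bp, with a dashed line at equal numbers. The windows with 59 and 70 p68 sites lie far below the line and the windows with 69 and 57 SRA sites lie above it.

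Stretches of the arm were set apart where adjacent windows held at least 40 sites of both lists together, bridging at most 1 poorer window. This rule was chosen after the window counts had been seen. The largest stretch ran from 150 to 157 Mb and held 209 SRA and 281 p68 sites, or 29.9 and 40.1 per Mb. The stretch from 200 to 206 Mb held 301 SRA and 162 p68 sites, or 50.2 and 27.0 per Mb. The order of the lists was thus turned between these stretches, with 0.744 SRA sites per p68 site in the former and 1.86 in the latter. A stretch from 226 to 230 Mb resembled the latter, with 136 SRA and 70 p68 sites (1.94 per p68 site). Smaller stretches lay from 160 to 161 Mb (25 SRA and 17 p68 sites), 235 to 236 Mb (25 and 32) and 244 to 246 Mb (40 and 42).

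Between the dense stretches lay a long poor one. From 185 to 197 Mb each window held at most 6 sites, and the 12 Mb together held 6 SRA and 20 p68 sites. The longest interval between neighbouring SRA sites, from 188728140 to 192777984 (4.05 Mb), was inside it and contained 8 p68 sites. The longest interval between neighbouring p68 sites was shorter, 1.87 Mb from 157999697 to 159871517, and contained 6 SRA sites.

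Seen in blocks of 25 Mb, the block from 125 to 150 Mb had 36 SRA and 28 p68 sites. The block from 150 to 175 Mb had clearly more p68 sites, 400 against 346 SRA sites. The block from 175 to 200 Mb was nearly balanced, with 122 SRA and 123 p68 sites. SRA prevailed in the block from 200 to 225 Mb (529 against 305) and in the block from 225 to 250 Mb (369 against 289).

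The balance of the lists on the long arm was compared with that elsewhere by groups of sites, because neighbouring sites are not independent. Sites of a list within 10 kb of each other were joined and counted once. The long arm held 803 SRA groups and 797 p68 groups, or 1.01 SRA groups per p68 group. The short arm of the same chromosome, with 986 SRA and 1577 p68 sites, held 588 and 871 groups (0.675), and the other chromosomes held 4062 and 9015 (0.451). The long arm had relatively more SRA groups than the short arm (odds ratio 1.49, adjusted p = 6.5e-08) and than the other chromosomes (odds ratio 2.24, adjusted p = 8.6e-50, two-sided Fisher's exact tests with Benjamini-Hochberg adjustment over 4 tests). When groups were joined at 50 kb, the difference from the short arm no longer passed (odds ratio 1.24, adjusted p = 0.0672, Fisher's exact test). These p-values treat groups as independent and do not replace replicates.

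SRA sites of the long arm were wide. Their median width was 2952 bp (quartiles 1956 and 4258 bp), and together they covered 4.77 Mb. On the short arm the median was 2932 bp, and on the other chromosomes it was 2033 bp. Sites over 5 kb made up 17.5% of SRA sites on the long arm (245 sites) and 17.4% on the short arm, against 4.37% on the other chromosomes. The p68 sites had a median width of 1433 bp on the long arm, 1560 bp on the short arm and 1133 bp on the other chromosomes, and covered 1.89 Mb of the long arm. Widths were not tested, since the sites of a list are not replicates.

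The widest SRA sites were chr1:204301624-204315638 (14015 bp), chr1:232602483-232615738 (13256 bp) and chr1:220871142-220884280 (13139 bp). All were far from p68, at 48495, 83417 and 83216 bp from the nearest p68 site. The widest p68 sites were chr1:155368253-155374724 (6472 bp), chr1:235166728-235172667 (5940 bp) and chr1:151185156-151190846 (5691 bp), at 69950, 5370 and 44936 bp from the nearest SRA site. None of these sites had a partner within 500 bp. That was also the case for 1203 of the 1402 SRA sites and 944 of the 1145 p68 sites of the arm.

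Many sites of the long arm had a neighbour of the same list close by, SRA sites more often than p68 sites. Another SRA site lay within 10 kb of 890 of the 1402 SRA sites (63.5%, 95% Wilson interval 60.9 to 66.0%), where the share over the whole SRA list was 48.1%. For p68 the number was 527 of 1145 (46.0%, 43.2 to 48.9%), against 37.9% over the whole p68 list. On the short arm the shares were 59.7% for SRA and 60.9% for p68. Denser sites have closer neighbours by themselves, and these shares were not set against density. Single sites made up 512 of the 803 SRA groups and 618 of the 797 p68 groups, or 36.5% of SRA sites and 54.0% of p68 sites. Groups of at least 5 sites numbered 43 for SRA, with 278 sites, and 22 for p68, with 143 sites.

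The largest SRA group, chr1:205177144-205265659, held 13 SRA sites that covered 48.6 of its 88.5 kb. They were between 1290 and 7253 bp wide. There were also 7 p68 sites inside it, and 3 of the 13 SRA sites touched or overlapped p68. SRA site chr1:205193004-205200256 contained 2 p68 sites whole, chr1:205196681-205197704 and chr1:205197917-205198839. SRA site chr1:205235548-205237383 was overlapped at its start by p68 site chr1:205234993-205236127. SRA site chr1:205251428-205258062 was met by 3 p68 sites, at its start, in its middle and at its end. The other 10 SRA sites of the group had no p68 site within 500 bp.

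The next SRA groups had little p68. Group chr1:205454164-205514153 held 11 SRA sites and 1 p68 site, and the smallest gap from its SRA sites to any p68 site was 1176 bp. Group chr1:226813204-226877441 held 11 SRA sites and no p68 site, with the nearest p68 site 22864 bp away. Group chr1:154776291-154829635 held 10 SRA sites and 2 p68 sites, and 1 SRA site had p68 within 500 bp. Group chr1:226754122-226797803, which lies just before the one at 226813204, held 9 SRA sites and no p68 site, and p68 was 56821 bp away.

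The largest p68 groups held few SRA sites. In 3 of the 5 some p68 sites were shared with SRA, at most 2 per group, while 17.6% of all p68 sites of the arm were shared. Group chr1:150541332-150587919 held 12 p68 sites over 46.6 kb. Its only SRA site, chr1:150575388-150577918, was overlapped by p68 sites at both ends. Group chr1:199931910-199968453 held 9 p68 sites with no SRA site inside, and the nearest SRA site was 27500 bp away. Groups chr1:154248843-154289199, chr1:202023540-202069165 and chr1:245030157-245078901 held 8 p68 sites each, with 0, 1 and 1 SRA site inside. Of these p68 sites 0, 2 and 1 were shared with SRA.

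**Figure D3:**
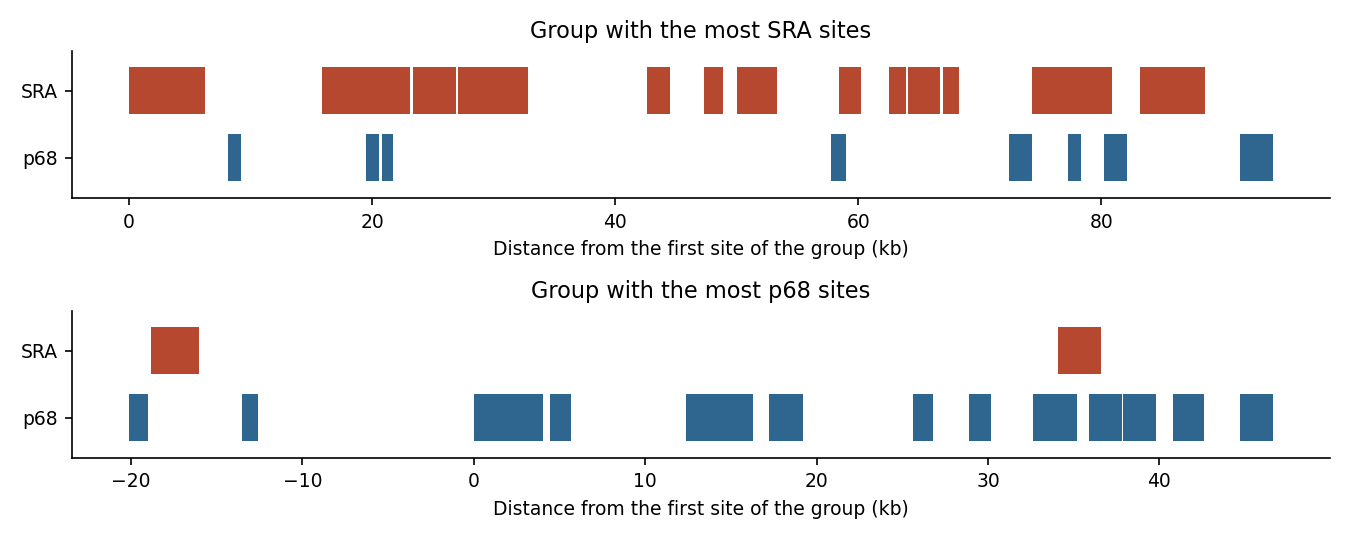
Sites of both lists (rows) in the group with the most SRA sites and the group with the most p68 sites, against the distance from the first site of the group in kb, with 20 kb shown on each side where sites lie. The former holds 13 SRA sites and 7 p68 sites, and the latter 12 p68 sites and 1 SRA site.

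When both lists were joined at 10 kb, 292 groups held sites of both, with 692 SRA and 576 p68 sites. A further 469 groups held 710 SRA sites and no p68, and 443 held 569 p68 sites and no SRA. About as many sites of each list were therefore in mixed groups as in groups of their own kind.

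An SRA site was called shared when a p68 site lay within 500 bp of its edges. On the long arm 199 of 1402 SRA sites were shared, which is 14.2% (95% Wilson interval 12.5 to 16.1%). Over the whole SRA list 11.6% of sites were shared. Seen from the p68 list, 201 of 1145 p68 sites were shared with SRA, which is 17.6% (15.5 to 19.9%), where the share over the whole p68 list was 6.55%. The long arm held 17.7% of the SRA list but 8.10% of the p68 list. More SRA sites per p68 site raise the p68 share by themselves, so these shares do not show sharing beyond density. On the short arm 18.3% of SRA sites (16.0 to 20.8%) and 12.1% of p68 sites (10.6 to 13.8%) were shared, and these shares of single sites were not tested. Of the 199 SRA sites, 160 overlapped a p68 site and 39 had a gap of up to 500 bp. Most had a single partner, and 21 SRA sites had at least 2 p68 sites within 500 bp.

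By groups, 157 of 803 SRA groups of the long arm (19.6%) had p68 within 500 bp. The share was higher than on the other chromosomes, where it was 11.4% (465 of 4062, odds ratio 1.88, adjusted p = 4.1e-09, Fisher's exact test as above). On the short arm it was 23.5% (138 of 588), and the difference did not pass the threshold (odds ratio 0.793, adjusted p = 0.0843, Fisher's exact test). It did pass, with the long arm lower, when groups were joined at 2 kb (odds ratio 0.757, adjusted p = 0.0241) and when a gap of 2 kb was allowed (odds ratio 0.723, adjusted p = 0.00837, both by Fisher's exact test). These tests do not allow for the width or density of sites. SRA sites were wider on the long arm than on the other chromosomes (median 2952 against 2033 bp). Whether sharing beyond width and density differs between these places was not tested.

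To set sharing against the crowding of both lists into the same stretches, all p68 sites of the arm were moved together by fixed distances. Moves of 100 kb to 1 Mb in steps of 100 kb in both directions gave 20 lists, in which sites that left the occupied part of the arm re-entered at its other end. In these lists 151 SRA sites were shared on average, with a lowest number of 110 and a highest of 187. The 199 shared sites of the deposited lists were more than in any of the 20 and 1.32 times their mean. With moves of only 10 to 50 kb the mean was 167 (154 to 186 over 10 lists), so that the ratio was 1.19. The lists are a description, from which no p-value was computed.

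The excess was seen for edges and not for centres. Only 12 SRA sites had their midpoint within 500 bp of a p68 midpoint, below all 20 moved lists, which gave 29.6 on average (18 to 44). The ratio was 0.406. In the same way, 11 SRA sites had at least 50% of their length covered by p68, against 35.4 on average in moved lists (21 to 51). For sites no wider than the median of their list, 58 of 701 SRA sites were shared, against 26.1 on average (14 to 37), a ratio of 2.22.

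**Figure D4:**
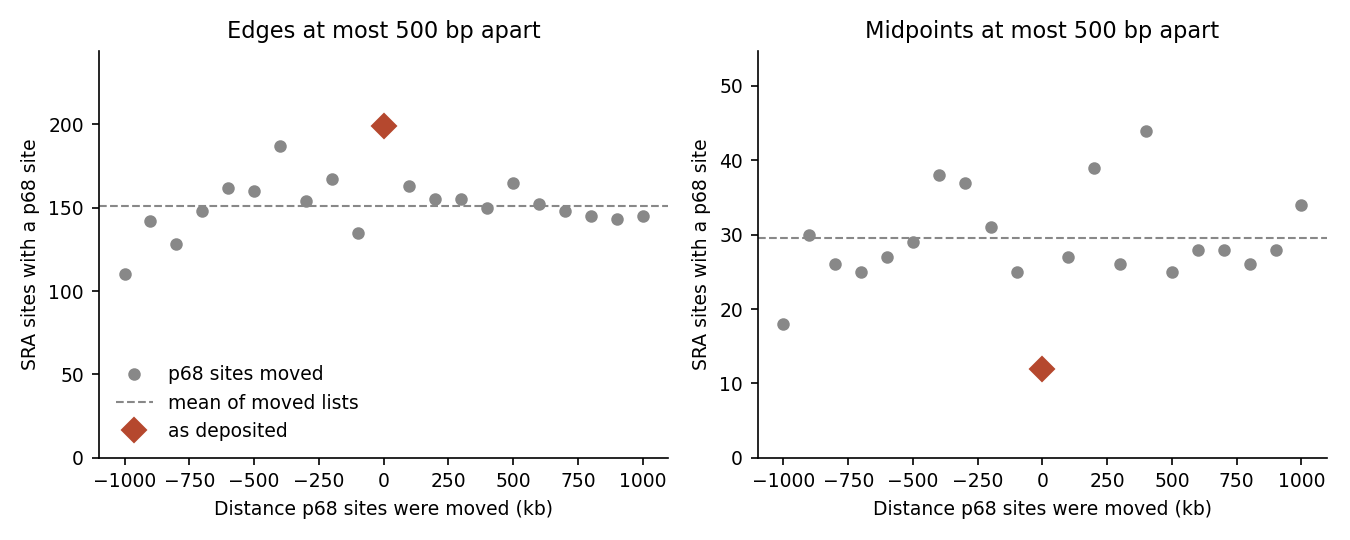
Number of SRA sites with a p68 site (y axis) against the distance by which all p68 sites were moved (x axis, kb), for edges at most 500 bp apart on the left and midpoints at most 500 bp apart on the right, with the deposited list as a diamond and the mean of the 20 moved lists as a dashed line. The deposited list gives 199 on the left, above all grey points, and 12 on the right, below all of them.

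The position of p68 sites around SRA sites shows the same arrangement. Inside SRA sites there were 63 p68 midpoints in 4.77 Mb, or 13.2 per Mb (95% exact Poisson interval 10.2 to 16.9). In the 500 bp outside their edges there were 75 in 1.24 Mb, or 60.4 per Mb (47.5 to 75.8). The density then fell to 26.8 per Mb up to 2 kb, 22.1 up to 5 kb, 20.1 up to 10 kb, 13.8 up to 50 kb and 7.61 up to 100 kb. Moved lists gave 93.2 midpoints inside SRA sites on average (66 to 111) and 23.6 in the 500 bp outside (14 to 36). The inside of SRA sites thus held 0.676 times and its edges 3.17 times the mean of the moved lists. Whether the inside counts as poorer than its surroundings depends on the distance taken. It was 0.957 times as dense as the band from 10 to 50 kb, 0.657 times as dense as the band from 5 to 10 kb and 1.74 times as dense as the band from 50 to 100 kb.

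**Figure D5:**
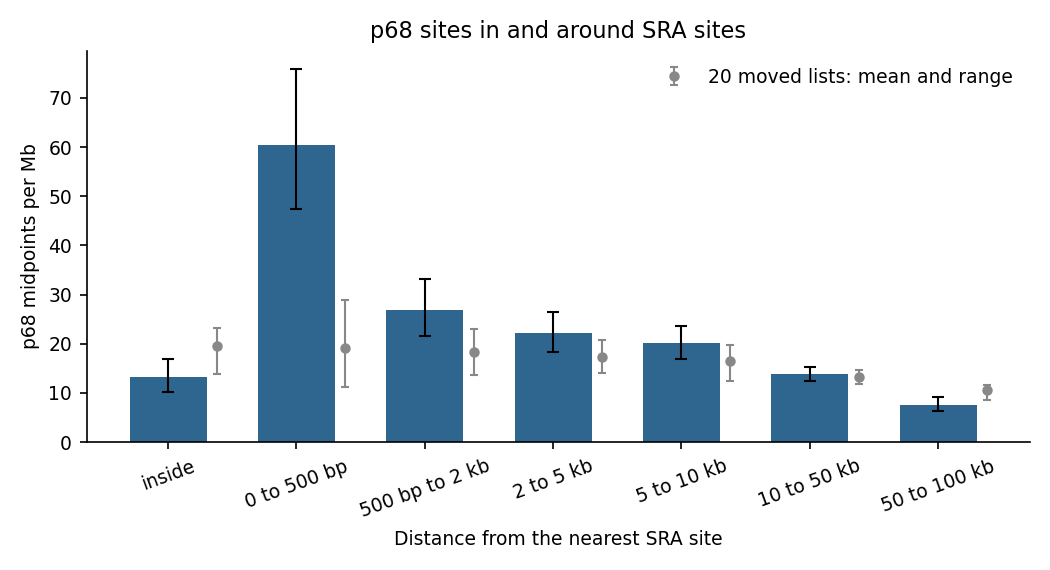
Density of p68 midpoints per Mb (y axis, bars, with 95% exact Poisson intervals) inside SRA sites and at increasing distances from the nearest SRA site (x axis), with the mean and range of the 20 moved lists as grey points. The bar for 0 to 500 bp reaches 60.4 per Mb, while the bar inside SRA sites is at 13.2 per Mb.

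Where SRA and p68 overlapped, in 180 pairs, the overlap was short. Its median was 533 bp (quartiles 308 and 776 bp), which is a median of 14.2% of the SRA site and 35.7% of the p68 site. In 28 pairs the p68 site lay wholly inside the SRA site, and in none was the SRA site inside the p68 site. The p68 site extended past the lower coordinate of the SRA site in 73 pairs and past the higher one in 79, so neither side prevailed.

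At both ends of 11 SRA sites, a p68 site centred outside overlapped the end or came within 500 bp of it. The moved lists gave 3.05 such SRA sites on average (1 to 7). This measure was chosen after the sites had been looked at. Of the 11 SRA sites, 7 lay in the dense stretch that begins at 150 Mb. That stretch held 14.9% of the SRA sites and 24.5% of the p68 sites of the arm, and 62 of the 199 shared SRA sites. Examples are chr1:150951147-150952851, between p68 sites that together reach from 150950588 to 150953695, chr1:151100821-151105046 and chr1:156721672-156723425. Others were on the outer part of the arm, at chr1:214454834-214457408 and chr1:242161347-242163039.

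The longest overlap of a single pair, 2992 bp, was between SRA site chr1:204474387-204479244 and p68 site chr1:204476253-204479933. The same SRA site was overlapped for 1648 bp at its other end by p68 site chr1:204473597-204476034, which left little of it free. Next came chr1:244978655-244982361 with chr1:244978150-244981136 (2482 bp) and chr1:155212609-155216567 with chr1:155211615-155214655 (2047 bp). At chr1:200854349-200859936 a whole p68 site of 1917 bp, chr1:200857909-200859825, lay inside the SRA site.

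Most sites, however, were not close to the other list. The median gap from an SRA site to the nearest p68 site was 15.3 kb (quartiles 4.01 and 45.9 kb), and from a p68 site to the nearest SRA site 13.0 kb (2.58 and 45.3 kb). Over 100 kb from p68 were 166 SRA sites (11.8%), and over 100 kb from SRA were 147 p68 sites (12.8%).

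Grouped by the number of p68 sites per window, windows richer in p68 had a larger share of shared SRA sites. More p68 sites in a window raise this share by themselves. Moved lists were not counted by these classes, so the shares do not show sharing beyond the number of p68 sites. In windows with up to 4 p68 sites, 7 of 124 SRA sites were shared (5.65%, 95% Wilson interval 2.76 to 11.2%). The share was 7.59% with 5 to 9 p68 sites per window (22 of 290), 11.8% with 10 to 19 (39 of 331) and 19.9% with at least 20 (131 of 657, 17.1 to 23.2%). Some windows went higher. From 150 to 151 Mb 11 of 21 SRA sites were shared (52.4%), from 200 to 201 Mb 11 of 24 (45.8%) and from 155 to 156 Mb 15 of 40 (37.5%). Single windows did not keep this order, since 8 of 69 were shared from 201 to 202 Mb (11.6%) with 30 p68 sites there, more than the 27 from 200 to 201 Mb. Some windows with still more p68 sites were in between, with 9 of 52 from 154 to 155 Mb (17.3%, 42 p68 sites) and 12 of 53 from 156 to 157 Mb (22.6%, 40 p68 sites). The window from 150 to 151 Mb, with 59 p68 sites, was above both (52.4%).

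The dense stretches differed in the same way. From 150 to 157 Mb 62 of 209 SRA sites were shared (29.7%, 95% Wilson interval 23.9 to 36.2%), and moved lists gave 49.0 there on average (28 to 60). From 200 to 206 Mb 52 of 301 were shared (17.3%, 13.4 to 22.0%), against 41.4 on average (28 to 61). From 226 to 230 Mb 14 of 136 were shared (10.3%), against 12.1 (6 to 21). In the poor stretch from 185 to 197 Mb no SRA site was shared (0 of 6, with a 95% Wilson interval up to 39.0%, or up to 50% by a limit of 3 counts). The observed number was above all moved lists only in the stretch that begins at 150 Mb, and there by little (62 against a highest of 60). From 200 to 206 Mb it was also above the mean (52 against 41.4) but within the range. The difference between stretches was not tested.

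By blocks of 25 Mb, 79 SRA sites were shared from 150 to 175 Mb, more than in any moved list (56.8 on average, 35 to 70). The same held for the sparse blocks, with 5 from 125 to 150 Mb (1.10 on average, 0 to 3) and 11 from 175 to 200 Mb (6.55 on average, 4 to 10). From 200 to 225 Mb there were 71, within the range of the moved lists (54.1 on average, 38 to 72). From 225 to 250 Mb there were 33, nearly the mean of the moved lists (32.1, 20 to 45). The ratio of observed to moved sharing thus ran from 1.03 in the outermost block to 4.55 in the innermost one, where it rests on 5 sites. The differences between blocks were not tested.

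Shared and other SRA sites differed little in width. Shared SRA sites had a median width of 3111 bp and the other SRA sites 2898 bp, a ratio of 1.07, and moved lists gave 1.15 on average (1.05 to 1.32). With SRA sites ordered by width and divided into 4 classes, from the narrowest to the widest 14.2%, 11.4%, 15.4% and 15.7% were shared. The moved lists gave means of 32.5, 31.1, 38.6 and 48.5 shared sites in these classes, against 50, 40, 54 and 55 in the deposited lists. The ratio was 1.54 in the narrowest class and 1.13 in the widest, without a steady order, since it was lower in the second class (1.28) than in the third. On the p68 side shared sites were the narrower ones, with a median of 1229 bp against 1461 bp for the other p68 sites.

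The SRA list depends on the oligonucleotides used to recover SRA, which were 29 probes of 20 nt with GC contents from 35% to 70%. They were compared with the RefSeq promoters (GRCh38.p14), the genome sequence that was at hand. None matched exactly in 35116 windows of 300 bases, on either strand. Up to 2 mismatches were found in 1 window, that of TRIM9, for the probe shown here, and in none of the 3598 windows of chromosome 1, where the closest had 3 mismatches. This comparison says nothing of sequence outside promoters. The paper states that its SRA dataset was also screened for homology to the probes, with no significant number of matches at up to 2 mismatches.
SRA probe 12: tgttgcctgcggaggcgagg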

How the data were processed

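The deposited files are 2 lists of sites (chromosome, start, end), without scores. According to the methods and labels, the authors mapped 50 bp reads to hg19, used SAMtools to discard duplicates and those with a mapping quality below 20, called peaks with MACS 1.4.2 (p below 1e-04 for SRA, 1e-05 for p68) and intersected 3 biological replicates. SRA sites were also subtracted against LacZ probe sites. A site missing from 1 replicate is thus absent, and depth is unknown. The aligner is not given in the sources used here, apart from CASAVA 1.8.2 in the processing notes.

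Sites were used unfiltered and are printed with the first base as 1. The midpoint assigned a site to arm, window, block or stretch. Shares have Wilson intervals, densities exact Poisson intervals. Regions printed singly are the 5 densest windows and groups, 3 widest sites, 5 longest overlaps and longest gaps, and others named as chosen later. The members, lists and measures were chosen with earlier results of these data known. The scripts were tested on simulated data. Python 3.11.15, numpy 2.4.6, scipy 1.17.1 and pandas 2.3.3 were used, with matplotlib 3.10.9 for plots.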

Additional observations from a re-analysis of the deposited data

How the results depend on the processing

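Leaving out replicates in turn could not be done. No paired analysis was possible because each deposited list already merges its replicates. The share of SRA sites with p68 (14.2%) was 11.4% for overlap, 18.9% for a gap of 2 kb, 0.856% for midpoints, 0.785% with 50% covered, 19.6% with sites within 10 kb joined, 8.27% for narrow sites and 11.4% without the block from 150 to 175 Mb. The share of p68 sites with SRA (17.6%) was 14.3% for overlap, 23.1% for a gap of 2 kb, 1.05% for midpoints, 21.2% with sites joined and 9.76% for narrow sites. The ratio to moved lists (1.32) was 0.406 for midpoints and 2.22 for narrow sites, and at least 1.19 in the other alternatives. Against the short arm, the odds ratio of SRA groups per p68 group became 1.24 (adjusted p = 0.0672) with groups joined at 50 kb (Fisher's exact test), and that of groups with p68 became 0.757 (groups joined at 2 kb) and 0.723 (gap of 2 kb), past the threshold. SRA sites with an SRA neighbour were 39.2% within 2 kb and 87.8% within 50 kb, and p68 sites with a p68 neighbour 19.6% and 80.7%. The density of p68 inside SRA sites relative to outside (0.957) was 0.657 against 5 to 10 kb and 1.74 against 50 to 100 kb. The remaining alternatives kept direction and side of the threshold. The causes of these changes were not tested.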

Other observations

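The 12 SRA sites whose midpoint lay within 500 bp of a p68 midpoint lay between 155 and 230 Mb, and 7 of them were in the stretch from 200 to 206 Mb, which held 21.5% of the SRA sites of the arm. The closest pairs were chr1:167034960-167038285 with the p68 site chr1:167036189-167037016 (midpoints 20 bp apart), chr1:228186579-228188334 with chr1:228187062-228187919 (34 bp) and chr1:201681845-201684580 with chr1:201682791-201683733 (49 bp). In each of these 3 pairs the p68 site lay wholly inside the SRA site. The p68 sites were narrow, at 828, 858 and 943 bp.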
